A study of Mus musculus with 278 samples.

Results

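The level of 40 genes of the endoplasmic reticulum (ER) secretory pathway and the unfolded protein response was examined in single cells of the mouse mammary epithelium. The genes were taken from a list of ER chaperones, disulfide isomerases, stress sensors and transcription factors, translocon and signal peptidase subunits, and vesicle coat and retrieval proteins. All 40 were present among the 25140 annotated genes that remained after mitochondrial and ribosomal genes were removed, and all 40 passed the filter on low counts (a CPM of 1 or more in 3 or more cells, CPM being the counts scaled by the cell's total), which 15336 genes passed in all.

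Cells of FVB/NJ mice, with no transgene or treatment named, were captured 1 by 1 on the Fluidigm C1 platform, which makes full-length cDNA from the poly(A) RNA of each cell. The groups were luminal cells and basal cells sorted from adult glands, and total epithelium from glands of pregnant mice, which the study places in mid-pregnancy. They held 43, 112 and 123 cells, of which 41, 85 and 96 had at least 50000 reads in the kept genes and were used. The pregnancy cells were not divided by lineage in the sort, so that a level in that group reflects both its mixture of lineages and the level per cell. The labels name no animal for any cell. Each group is therefore 1 sample, no test between groups was possible, and the 95% intervals given with levels and ratios cover counting error only, in reads amplified without molecular identifiers.

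The kept cells held 173860 to 1008656 reads in adult luminal (median 639606), 67409 to 1293342 in adult basal (median 379369) and 54091 to 790786 in pregnancy (median 215568). The 8 milk genes, that is the caseins (Csn2, Csn3, Csn1s1, Csn1s2a and Csn1s2b) and Lalba, Wap and Glycam1, took a median of 6.76% of a pregnancy cell's reads, up to 64.1%, against a median of 0.584% in adult luminal cells and at most 0.0168% in adult basal cells. They were left out of the totals, so that CPM is relative to all reads outside the milk genes. The labelled cell types carried their markers: 12 basal markers summed to 456, 33288 and 14760 CPM and 12 luminal markers to 17082, 1047 and 18935 CPM in adult luminal, adult basal and pregnancy cells. There were 5 cells that went against their label, namely adult luminal cell 35, with 10 basal and 7 luminal markers, and 4 cells with 3 to 5 of 5 immune markers (adult basal cell 19 and pregnancy cells 13, 35 and 41). Markers of other cell types were found in further cells. At least 3 fibroblast markers were found in 5 adult luminal and 12 pregnancy cells, all of the latter with title numbers up to 55, at least 3 endothelial markers in 2 and 9, and at least 3 pericyte markers in 2 pregnancy cells. No adult basal cell held as many of any of these lists. Counts of members are given without the 5 cells and, in a division chosen after the data were seen, without all 29 cells that went against their label or held 3 or more such markers (7 adult luminal, 1 adult basal and 21 pregnancy cells).

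Proteins that a cell secretes or inserts into membranes enter the ER through the Sec61 channel, lose their signal peptide, and are glycosylated, folded and oxidised by resident chaperones and isomerases before COPII vesicles carry them to the Golgi. When unfolded proteins accumulate in the ER lumen, the sensors Ern1 (IRE1), Eif2ak3 (PERK) and Atf6 signal to the nucleus through the transcription factors Xbp1, Atf4 and cleaved Atf6, which raise the transcription of chaperones and of the secretory machinery. The mammary secretory cell has a large ER because it makes caseins and whey proteins for export, and Xbp1 is best known for building that ER in plasma cells and other secretory cells.

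The DNA elements through which these factors act were looked for first, since they are a property of the genes that does not depend on the cells measured. Promoters of 30 of the 40 members were in the RefSeq table used here (build GRCm38.p6), which gives 250 bases before and 50 after each gene start. The ER stress response element, ERSE (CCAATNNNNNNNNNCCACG, either strand), was found in 6 members, Calr, Canx, Dnajc3, Hsp90b1, Hspa5 and Pdia6, all of them chaperones or isomerases, and in 0.119% of all 32851 promoters. Its second form, ERSE-II (ATTGG and CCACG with 1 base between them), was found in Dnajb11 and Herpud1 and in 0.0365% of all promoters. The shorter unfolded protein response element (TGACGTG) was found in Hspa5, Kdelr3 and Sec24d and in 2.01% of all promoters, and the amino acid response element (TGATGNAA) in Herpud1 alone of the members and in 3.97% of all promoters. No matches of different elements overlapped. A match is only a run of letters in this window and not evidence of binding. The members were listed as genes of this response, so their share of matches is not independent of that choice, and it was not tested.

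The matches upstream of the gene start are shown with 20 bases on either side, in the direction of the gene, with the ERSE or ERSE-II in capitals. They are given because the same letters recur in genes whose levels in these cells differed in opposite directions, as described below.
Calr, chr8:84847055-84847113, gene on the minus strand: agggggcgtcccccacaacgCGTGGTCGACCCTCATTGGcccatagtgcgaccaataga
Herpud1, chr8:94386357-94386407, gene on the plus strand: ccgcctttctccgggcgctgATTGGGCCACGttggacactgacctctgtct
Hsp90b1, chr10:86705618-86705676, gene on the minus strand: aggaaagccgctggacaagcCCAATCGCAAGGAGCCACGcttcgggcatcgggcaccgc
Hsp90b1, chr10:86705513-86705571, gene on the minus strand: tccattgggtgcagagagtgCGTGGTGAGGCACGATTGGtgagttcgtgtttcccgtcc
Canx, chr11:50325780-50325838, gene on the minus strand: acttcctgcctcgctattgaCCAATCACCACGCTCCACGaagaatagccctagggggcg
Pdia6, chr12:17266471-17266529, gene on the plus strand: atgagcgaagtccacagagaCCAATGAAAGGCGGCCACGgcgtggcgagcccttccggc
Dnajc3, chr14:118937807-118937865, gene on the plus strand: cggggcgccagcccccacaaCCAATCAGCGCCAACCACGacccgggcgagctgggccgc
For Hspa5, the ER chaperone whose transcription is the standard readout of the response, and for Xbp1, the transcription factor with the highest log2 ratio between luminal-marked and basal-marked pregnancy cells among members over 50 CPM, the whole 250 bases before the start are shown. The capitals in Hspa5 mark the ERSE, and the tgacgtg of the shorter element lies upstream of it. None of the 4 elements was found in the Xbp1 window.
Hspa5, chr2:34771840-34772089, gene on the plus strand: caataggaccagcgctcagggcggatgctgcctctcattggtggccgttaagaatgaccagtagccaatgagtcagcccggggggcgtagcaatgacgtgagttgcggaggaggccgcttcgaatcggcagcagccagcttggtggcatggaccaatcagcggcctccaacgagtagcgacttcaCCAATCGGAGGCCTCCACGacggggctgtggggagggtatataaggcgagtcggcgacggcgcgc
Xbp1, chr11:5520391-5520640, gene on the plus strand: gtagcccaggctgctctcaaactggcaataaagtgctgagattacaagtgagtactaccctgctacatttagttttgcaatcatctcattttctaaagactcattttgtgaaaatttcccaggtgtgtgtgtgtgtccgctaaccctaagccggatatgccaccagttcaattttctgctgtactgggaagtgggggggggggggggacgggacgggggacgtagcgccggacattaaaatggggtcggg

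Summed over the 40 genes, the secretory pathway took nearly the same share of reads outside the milk genes in each group. The milk genes held 22.8% of the summed reads in pregnancy and 1.25% in adult luminal cells. The pregnancy share would therefore be lower with them counted in. The members held 1.49% (95% interval 1.48 to 1.49) of reads in adult luminal, 1.39% (1.39 to 1.4) in adult basal and 1.39% (1.39 to 1.4) in pregnancy cells. Single cells ranged from 0.342% to 3.14% in adult luminal (median 1.47%), from 0.276% to 3.02% in adult basal (median 1.33%) and from 0.481% to 2.84% in pregnancy (median 1.34%). The groups overlapped over nearly their whole ranges, and the differences between their sums were small against the spread among cells. With each cell thinned to 20000 reads, a median of 22 of the 40 members was detected in an adult luminal cell, 16 in an adult basal cell and 23 in a pregnancy cell. Without thinning the medians were 29, 21 and 30.

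The equal sum was made up differently by role. The 10 chaperones and co-chaperones took 0.780% of reads in adult luminal, 0.896% in adult basal and 0.719% in pregnancy cells, whereas the 12 genes of the translocon, signal peptidase and oligosaccharyltransferase took 0.447%, 0.272% and 0.417%. The 4 disulfide isomerases took 0.134%, 0.0909% and 0.0981%. The 8 sensors and transcription factors took 0.0370%, 0.0419% and 0.0744%, highest in pregnancy, and the 5 vesicle genes 0.0872%, 0.0842% and 0.0689%. Basal cells were thus richest in chaperone reads, and luminal cells in translocon reads. A few genes carried the sum, as Canx, Hspa5, Ssr3 and Hsp90b1 together held 55.2% of member reads in adult luminal, 62.8% in adult basal and 55.2% in pregnancy cells.

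Per length, as RPKM (CPM per kilobase of transcript), Canx and Hspa5 stood first and second in all 3 groups. Canx, the membrane-bound lectin chaperone of newly made glycoproteins, was at 1129 RPKM in adult luminal cells, 1001 in adult basal and 840 in pregnancy cells. At the other end, the lowest member was the KDEL receptor Kdelr3 in adult luminal cells (0.345 RPKM), the PERK gene Eif2ak3 in adult basal cells (0.143 RPKM) and the IRE1 gene Ern1 in pregnancy cells (1.07 RPKM). The stress sensors were therefore near or at the bottom of the order in each group.

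**Figure D1:**
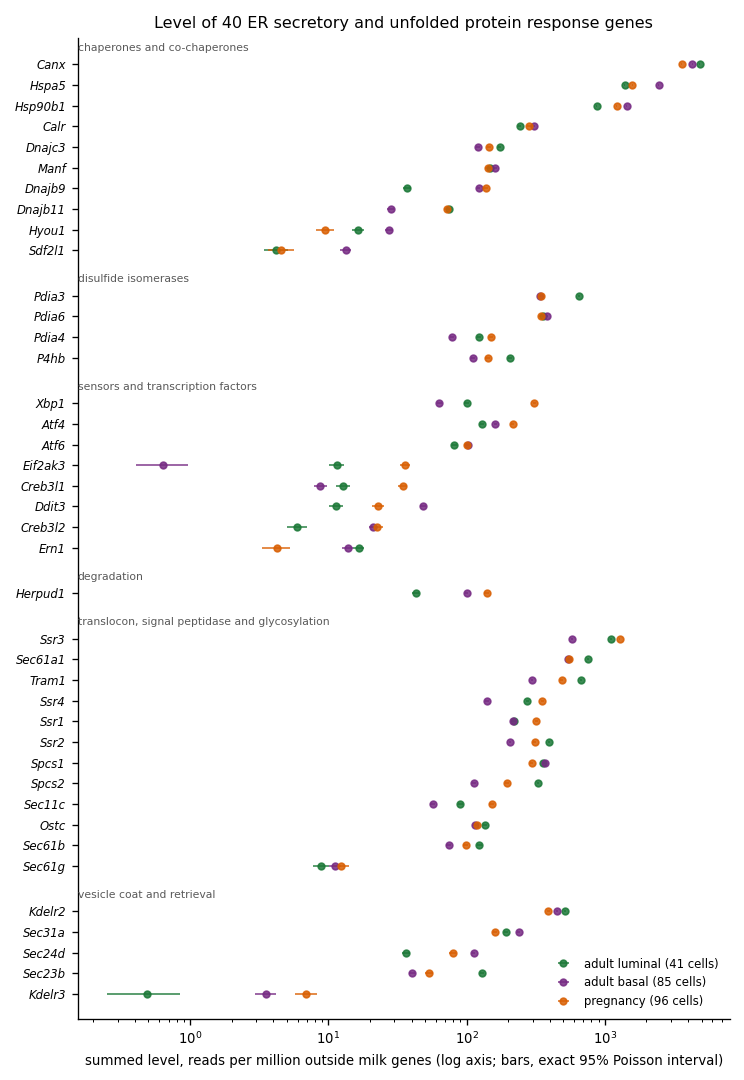
Summed level of each of the 40 members in CPM outside the milk genes (log axis) in adult luminal (41 cells), adult basal (85) and pregnancy cells (96), ordered by role, with exact 95% Poisson intervals as bars. Xbp1 stood at 308 CPM in pregnancy against 100 and 63.5 in the adult sorts, while Canx, Hspa5 and Hsp90b1 differed by less than 2-fold between the groups.

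Of the 11 members past 2-fold between pregnancy cells, a group of mixed lineage, and adult luminal cells, 6 were sensors and transcription factors. There were 9 members at least 2-fold higher in pregnancy and 2 at least 2-fold lower, where 28.3% of all 15313 genes compared were higher and 22.7% lower (51% in either direction). The median log2 ratio was 0.16 over the members and -0.03 over all genes. Of the 8 sensors and transcription factors 5 were at least 2-fold higher, against 1 of 10 chaperones, none of 4 isomerases and none of the 12 translocon and peptidase genes. Without the cells against their label the counts were 8 and 2, and without all cells with markers of another type 7 and 3. With the milk genes kept in the totals they were 7 and 5, as every log2 ratio was then shifted by -0.35.

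Xbp1 (GeneID 22433) ranged from 0 to 579 CPM in adult luminal cells, with a median of 34.2, and from 0 to 1990 in pregnancy cells, with a median of 120. The ranges overlapped, and the highest pregnancy cells lay well above every adult luminal cell. Its summed level was 100 CPM in adult luminal and 308 in pregnancy, a log2 ratio of 1.62 (1.55 to 1.69). Herpud1, a membrane protein of ER-associated degradation, had a median of 0 in adult luminal cells (highest 1158) and 43.7 in pregnancy cells (highest 2496). Its log2 ratio of 1.70 (1.60 to 1.81) was 2.54 without the highest cell of each group, because adult luminal cell 26 held 47.7% of the luminal reads. Dnajb9 (ERdj4), a co-chaperone of Hspa5 and a known Xbp1 target, had a median of 0 CPM in adult luminal cells and 41.4 in pregnancy cells, and a log2 ratio of 1.89 (1.78 to 2.01).

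The other members past 2-fold were of low level. Eif2ak3 was at 11.5 CPM in adult luminal and 36.0 in pregnancy cells, the transcription factor Creb3l1, which is cleaved at the Golgi like Atf6, at 12.8 and 34.5, and its relative Creb3l2 at 5.94 and 22.6. Ddit3 (CHOP), the factor of prolonged ER stress, stood at 11.4 and 22.9 CPM, just past the limit with a log2 ratio of 1.01. The COPII coat gene Sec24d was at 36.7 and 79.3 CPM, but adult luminal cell 33 held 71.2% of the luminal reads, and its log2 ratio of 1.11 was 2.62 without the highest cell of each group. Kdelr3 was at 0.488 and 6.91 CPM, with 12 luminal reads in all, most of them in luminal cell 14. Without the highest cells the log2 ratios of Creb3l1 (46.8% of luminal reads in cell 13) and Kdelr3 were 2.04 and 4.68, against 1.43 and 3.82.

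Among the members that were lower in pregnancy, Sec23b, another COPII coat subunit, was at 129 CPM in adult luminal and 53.7 in pregnancy cells (log2 ratio -1.26, -1.37 to -1.16). Ern1 was at 16.6 and 4.24 CPM, with adult luminal cell 7 holding 59.2% of the luminal reads (log2 ratio -1.97, and -1.38 without the highest cells). Pdia3, the isomerase that works with Canx and Calr, ranged from 0 to 2104 CPM in adult luminal cells (median 539) and from 0 to 1832 in pregnancy cells (median 246), with sums of 648 and 346 CPM and a log2 ratio of -0.91. Spcs2, a signal peptidase subunit, was at 328 and 196 CPM (-0.75). Hyou1, at 16.3 and 9.53 CPM, was past 2-fold only without the highest cells (-1.03). The other members differed by less than 2-fold, among them Hspa5 at 1389 and 1579 CPM, Hsp90b1 at 873 and 1214 and Canx at 4844 and 3604.

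The shares past 2-fold were also counted among abundant genes alone. Of the 29 members at 100 CPM or more in the higher group 4 were past 2-fold in either direction (13.8%), compared with 32.5% of 2668 genes of that level. Against adult basal cells the shares were 14.3% of 28 members and 25.7% of genes, and between the adult sorts 17.9% of 28 members and 43.5% of genes. Whether the members differ from genes of the same level in this was not tested.

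Against adult basal cells, pregnancy cells were higher in Xbp1. There were 7 members at least 2-fold higher (background 34.2%) and 4 at least 2-fold lower (background 15.9%, and 50.1% for 11 in either direction), with a median log2 ratio of 0.15 over members and 0.27 over all 15289 genes. Of the 12 translocon and peptidase genes 3 were at least 2-fold higher. The counts over the members were the same without the cells against their label, 6 and 4 without all cells with markers of another type, and 4 and 5 with the milk genes kept in the totals, a shift of -0.37 under which Ssr3, Ssr4 and Dnajb11 were below 2-fold. The median adult basal cell had no read of Xbp1, and 18.8% of thinned basal cells held one, against 67.7% of pregnancy cells. Its log2 ratio was 2.28 (2.21 to 2.35), and 3.37 without the highest cell of each group, since adult basal cell 43 alone, at 5593 CPM, held 56.2% of the basal reads.

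Ssr4, a subunit of the translocon-associated protein complex, ranged from 0 to 1390 CPM in adult basal cells (median 45.0) and from 0 to 1216 in pregnancy cells (median 245). Its sums of 140 and 353 CPM gave a log2 ratio of 1.33 (1.28 to 1.39). Ssr3 of the same complex was at 579 and 1279 CPM (1.14), whereas Ssr1 and Ssr2 were below 2-fold (0.57 and 0.60). Sec11c, a catalytic subunit of the signal peptidase, had no read in the median adult basal cell and 44.6 CPM in the median pregnancy cell and a log2 ratio of 1.42 (1.33 to 1.5). Dnajb11 (ERdj3), a soluble Hspa5 co-chaperone, was at 28.3 and 72.5 CPM (1.36).

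Hspa5 was lower in pregnancy cells but within 2-fold. It ranged from 0 to 8216 CPM in adult basal cells (median 2088) and from 0 to 7802 in pregnancy cells (median 1272), and its sums of 2445 and 1579 CPM gave a log2 ratio of -0.63 (-0.65 to -0.61). The members past 2-fold lower were all of low level in pregnancy. Ddit3 was at 48.2 CPM in adult basal and 22.9 in pregnancy cells (-1.07), Ern1 at 13.8 and 4.24, Hyou1 at 27.5 and 9.53, and Sdf2l1 at 13.3 and 4.57. Of these, Hyou1 and Sdf2l1, both partners of Hspa5, rested on adult basal cell 20 (76.4% of Hyou1 reads) and cell 67 (84.1% of Sdf2l1 reads). Without the highest cells their log2 ratios were -0.62 and 0.84, and that of Ern1, with 66.5% of its basal reads in cell 13, was -0.85.

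For 2 regulators the adult basal level was too sparse for a group ratio to be read as a level in basal cells. All 314 adult basal reads of Creb3l1 came from cell 51, and the 23 reads of Eif2ak3 from 2 cells. In pregnancy, reads of Creb3l1 were found in 36.5% of cells and of Eif2ak3 in 40.6%, before thinning. Without the highest cells Creb3l1 stood at 8.41 or more and Eif2ak3 at 7.92, against log2 ratios of 1.97 and 5.81. The value of Creb3l1 is only a lower bound, as no basal read was left and a limit of 3 reads was used. Pdia4 (0.94) and Kdelr3 (0.97) were past 2-fold without the highest cells, at 1.12 and 1.88. Of the members not past 2-fold, Sec31a was at 238 CPM in adult basal and 160 in pregnancy cells (-0.57), and Sec24d at 112 and 79.3.

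Between the adult sorts, most chaperones had ratios below 0 and most translocon and peptidase genes ratios above 0. Between adult luminal and adult basal cells 5 members were at least 2-fold higher in luminal (background 36.2%) and 7 at least 2-fold lower (background 23.7%, and 60% for 12 in either direction), with medians of 0.18 over members and 0.37 over all 15034 genes. The counts were the same without the cells against their label and 6 and 7 without all cells with markers of another type. They were 4 and 9 with TMM factors, edgeR's scaling between libraries. Of the 12 translocon and peptidase genes, 10 had ratios above 0 and their median was 0.71, compared with 3 of 10 chaperones above 0 and a median of -0.53. Of the chaperones below 0, Sdf2l1 and Hyou1 were above 0 without the highest cells, as given below.

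Sec23b was at 129 CPM in adult luminal and 40.5 in adult basal cells (log2 ratio 1.67, and 2.29 without the highest cells, since basal cell 11 held 42.9% of its basal reads), Spcs2 at 328 and 114 CPM (1.53), Dnajb11 at 74.5 and 28.3 (1.4) and Tram1, which assists nascent chains into the membrane, at 674 and 297 (1.18). Hspa5 was at 1389 and 2445 CPM (-0.82, -0.83 to -0.80) and Hsp90b1 (GRP94), the ER paralog of HSP90, at 873 and 1444 (-0.73). The luminal sort was thus higher in the entry machinery, and the basal sort in the abundant luminal-space chaperones, each by less than 2-fold for most members.

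Among the members on the adult basal side, Dnajb9 was at 36.9 CPM in adult luminal and 122 in adult basal cells (-1.73), Herpud1 at 42.9 and 99.9 (-1.22, and -1.95 without the highest cells, with luminal cell 26 holding 47.7%), Ddit3 at 11.4 and 48.2 (-2.08), and Sec24d at 36.7 and 112 (-1.61, and -2.85 without the highest cells, as basal cell 11 and luminal cell 33 held 30.5% and 71.2% of its reads). Creb3l2 was at 5.94 and 21.2 CPM. The Sdf2l1 ratio of -1.67 was 0.19 without the highest cells. Xbp1, with a ratio of 0.66, passed 2-fold (1.62) once basal cell 43 and the highest luminal cell were left out. Creb3l1 (0.54) had no basal read left without basal cell 51. Its value of 6.37 without the highest cells is only a lower bound, against the limit of 3 reads. The direction of Hyou1 turned, from -0.75 to 0.42. Eif2ak3, at 11.5 and 0.642 CPM, rested on the 23 basal reads named above.

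Because the pregnancy cells were not sorted by lineage, they were divided by their markers after thinning. A cell with at least 3 more of the 12 luminal than of the 12 basal markers was called luminal-marked (31 cells), a cell with at least 3 more basal markers basal-marked (43 cells), and 22 stood between. These classes are ranges of a score and not cell types, and 12 cells lay within 1 marker of a limit. The genes counted are not members. The cells in between held a median of 26.6% milk reads, the luminal-marked 19.0% and the basal-marked 0.406%.

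The members took 1.23% (1.22 to 1.24) of reads in luminal-marked and 1.51% (1.5 to 1.52) in basal-marked cells. The difference lay in the chaperones, at 0.534% and 0.882%, while the translocon and peptidase genes stood at 0.436% and 0.362% and the sensors and transcription factors at 0.0849% and 0.0598%. Both of the latter differences were small up to title number 55, as given below. In luminal-marked cells the order per length was headed by Ssr4 (551 RPKM), with Canx (547) and Hspa5 (501) next. There were 8 members at least 2-fold higher in luminal-marked cells (background 25.2%) and 9 at least 2-fold lower (background 28.4%, and 53.6% for 17 in either direction). The medians were 0.13 over members and -0.05 over all 14946 genes. The counts were 8 and 7 without the cells against their label, 9 and 5 without all cells with markers of another type, and 6 and 11 with the milk genes kept in the totals, a shift of -0.41 under which Ssr4 and Sec61b were below 2-fold.

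Xbp1 was the clearest of the luminal-marked genes. It was found in all 31 luminal-marked cells before thinning, from 18.6 to 1990 CPM (median 380), and ranged from 0 to 1777 in basal-marked cells (median 4.77). Most basal-marked cells lay below most luminal-marked cells, although the ranges overlapped. Its sums of 437 and 91.0 CPM gave a log2 ratio of 2.26 (2.14 to 2.39). Set beside the adult sorts, luminal-marked cells had 4.36 times the Xbp1 level of adult luminal cells, and basal-marked cells 1.43 times that of adult basal cells, or a log2 ratio of 1.41 without the highest cells.

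The translocon and peptidase genes past 2-fold were Ssr4, Sec11c and Sec61b. Ssr4 was at 443 CPM in luminal-marked and 192 in basal-marked cells, with medians of 328 and 179 (log2 ratio 1.21, 1.11 to 1.30). Sec11c was at 208 and 67.7 CPM, with medians of 75.4 and 0 (1.62, 1.46 to 1.78). Sec61b, the small beta subunit of the Sec61 channel, ranged from 0 to 269 CPM (median 138) and from 0 to 279 (median 28.4), with sums of 144 and 59.7 (1.27, 1.10 to 1.44). The channel subunit itself, Sec61a1, was at 715 and 503 CPM and did not reach 2-fold, and Sec61g was at 13.1 and 10.7.

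Of the regulators, Creb3l1 was at 70.8 CPM in luminal-marked and 16.9 in basal-marked cells (2.06) and Eif2ak3 at 60.1 and 13.9 (2.12), whereas Creb3l2 was at 7.01 and 41.1 (-2.55, and -3.66 without the highest cells, cell 73 holding 70% of its luminal-marked reads). The paralogs Creb3l1 and Creb3l2 therefore lay on opposite sides. Atf4, the translationally controlled factor of the PERK branch, ranged from 0 to 447 CPM in luminal-marked cells (median 92.7) and from 0 to 1022 in basal-marked cells (median 234), with sums of 128 and 310 and a log2 ratio of -1.28 (-1.4 to -1.15). Ern1 had 39 and 8 reads, and no level was read from it. The Ddit3 ratio of -1.07 was -0.92 without the highest cells. Sec23b, at 62.5 and 18.4 CPM, completed the members higher in luminal-marked cells (1.77).

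The abundant chaperones were on the basal side. Canx was at 2346 CPM in luminal-marked and 4882 in basal-marked cells, with medians of 2233 and 4183 and a log2 ratio of -1.06 (-1.09 to -1.03). Hsp90b1 was at 782 and 1635 CPM, with medians of 703 and 1425 (-1.06, -1.11 to -1.01). Hspa5 was at 1312 and 1619 CPM (-0.30), and Calr, the soluble relative of Canx, at 352 and 244, higher in luminal-marked cells. Of the lower members Herpud1 was at 103 and 206 CPM (-1.0) and Kdelr3 at 2.80 and 11.2 (-2.0, and -3.0 without the highest cells, cell 36 holding 68.8% of its luminal-marked reads). Sdf2l1 had 14 and 34 reads, 50% of the former in cell 40 (-1.02, and -1.63 without the highest cells), and Hyou1, at -1.68, was at -0.02 without the highest cells because pregnancy cell 42 held 77.2% of its basal-marked reads.

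**Figure D2:**
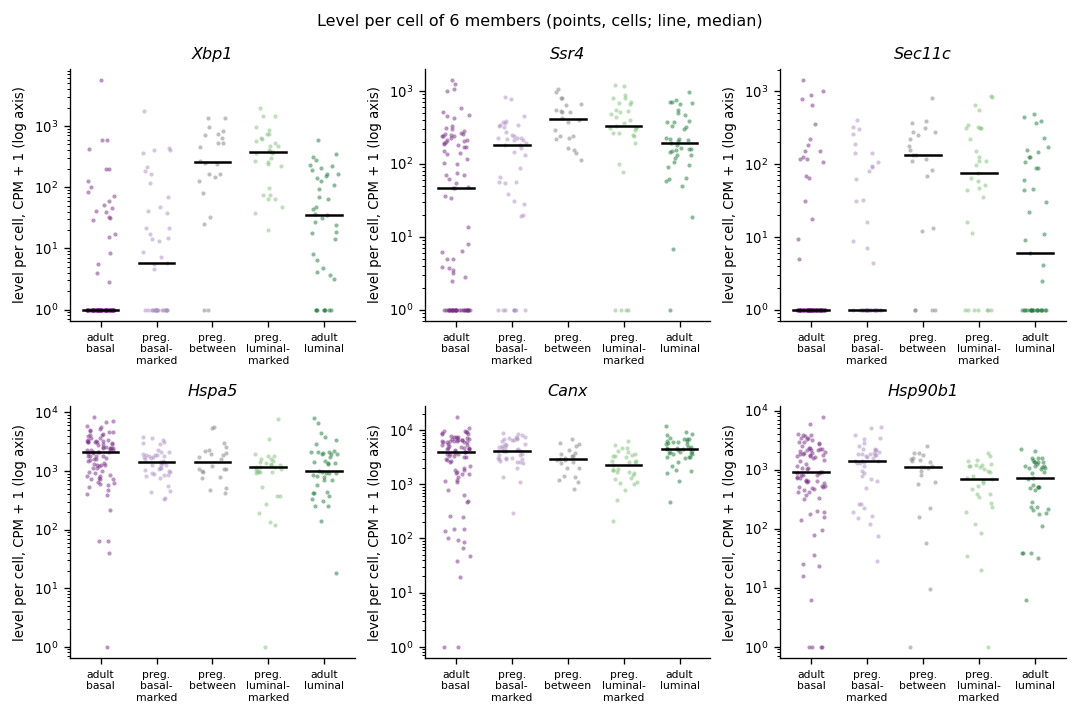
Level per cell (CPM + 1, log axis) of Xbp1, Ssr4, Sec11c, Hspa5, Canx and Hsp90b1 in adult basal, pregnancy basal-marked, in-between and luminal-marked, and adult luminal cells, with points for cells and a line at the median. The median of Xbp1 was 0 CPM in adult basal and 380 in pregnancy luminal-marked cells, whereas the medians of Canx, from 2233 to 4419 in the 2 adult sorts and the luminal- and basal-marked classes, differed less.

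Pregnancy cells with title numbers up to 55 and above 55 differed in features that are not members, and the class comparison was repeated within each range. This division was drawn after the data had been seen, and the labels name no capture or animal for it. Cells numbered up to 55 had a median milk share of 2.58% and those above 55 of 18.9%. At least 3 of 10 cycling markers were found in 23 of the 45 cells up to 55 and in 2 of the 51 above, and fibroblast markers summed to 4319 and 258 CPM. The part of these differences in the results below was not tested.

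Up to title number 55, 5 members were at least 2-fold higher in luminal-marked cells (background 27.6%) and 6 lower (background 26.1%, and 53.7% for 11 in either direction). Above 55 these counts were 15 (background 31.9%) and 6 (background 32.4%), with 64.3% of genes past 2-fold in either direction. The median over members was -0.09 in the first range and 0.33 in the second. Without the cells against their label the counts were 5 and 7 up to 55 and the same above, where no such cell stood. Without all cells with markers of another type they were 9 and 5 up to 55, from 10 luminal-marked and 14 basal-marked cells, with the median turned to 0.18, and 15 and 4 above. Xbp1, Creb3l1, Eif2ak3 and Sec61b were past 2-fold higher in both ranges and Atf4 and Kdelr3 lower in both, which is 10% and 5% of the 40 members, compared with 11.8% and 12.2% of the 12734 genes with a ratio in both. Of these, Eif2ak3 had 50% or more of its reads in 1 cell in the luminal-marked cells of both ranges and in the basal-marked cells above 55. For Kdelr3 this held in both classes of both ranges. Ern1, with few reads, was past 2-fold in opposite directions. Above 55 this came only from the limit of 3 reads, as the basal-marked cells there held none. Altogether 26 of 40 members (65%) had the same direction in both ranges, against 58.4% of genes.

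The log2 ratio of Xbp1 was 1.31 (1.14 to 1.47) up to 55 and 3.52 (3.27 to 3.78) above, that of Ssr4 0.79 and 1.56, and that of Sec11c 0.95 and 2.13. Those of Canx were -0.97 and -1.15, of Hsp90b1 -1.25 and -0.75, and of Atf4 -1.26 and -1.10. The values of Canx and Atf4 thus lay close together in both ranges, while those of Xbp1, Ssr4 and Sec11c were larger above 55, a difference that was not tested. The median over the 10 chaperones turned, from -0.58 up to 55, with 8 of them below 0, to 0.57 above 55, with 4 below 0. Their summed reads did not turn. They took 0.537% of reads in luminal-marked and 0.933% in basal-marked cells up to 55, and 0.532% and 0.816% above. The translocon and peptidase genes took 0.412% and 0.405% in the same classes up to 55, and 0.455% and 0.306% above. The sensors and transcription factors took 0.0793% and 0.0743% up to 55, and 0.0894% and 0.0410% above. Without the cells with markers of another type, the ratios up to 55 were 1.35 for Xbp1, 0.90 for Ssr4 and 1.61 for Sec11c. Dnajb11, at -0.68 and 4.39, and Sec23b, at 0.87 and 4.50, differed most between ranges among members with reads in every class. In basal-marked cells above 55 both stood at 1.04 RPKM, so that their ratios there rest on few reads. Above 55 the highest basal-marked cell held over 50% of the reads of Xbp1, Dnajb11 and Sec23b, and without the highest cells their ratios were 5.10, 5.85 and 4.44. The ratio of Hyou1 up to 55, -2.01, was -0.27 without them. Calr was past 2-fold in the second range (1.42). No read of Creb3l1 was found in the 19 basal-marked cells above 55, where its ratio was at least 50.7-fold against a limit of 3 reads over the class, 4.81 on the log2 scale without the highest luminal-marked cell.

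**Figure D3:**
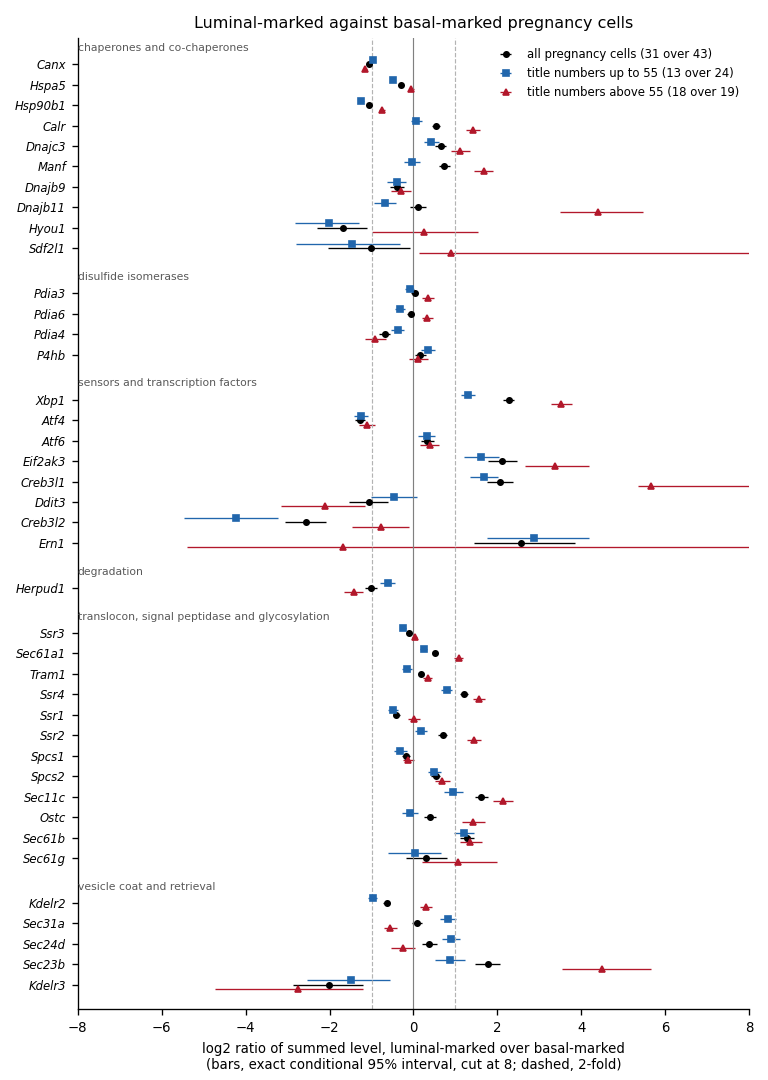
Log2 ratio of the summed level in luminal-marked over basal-marked pregnancy cells for each member, over all cells (31 over 43) and within title numbers up to 55 (13 over 24) and above 55 (18 over 19), with exact conditional 95% intervals. Xbp1 stood at 1.31 and 3.52 in the 2 ranges, and Canx at -0.97 and -1.15, beside the dashed lines of a 2-fold difference.

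Compared with the adult sort of the same lineage, luminal-marked pregnancy cells were at least 2-fold higher in 8 members (background 25.8%) and lower in 4 (background 27.6%, and 53.4% for 12 in either direction), with medians of -0.03 over members and -0.12 over all genes. Besides Xbp1 (2.12), the higher members over 50 CPM were Creb3l1 (2.47), Eif2ak3 (2.39), Sec24d (1.46, and 2.51 without the highest cells), Dnajb9 (1.29), Herpud1 (1.26, and 1.88 without the highest cells) and Sec11c (1.2). Canx was lower, at 2346 CPM against 4844 (-1.05). Of the 8 sensors and transcription factors 3 were at least 2-fold higher and 1 lower, or 50% in either direction against 53.4% of all genes. Creb3l2 and Ddit3, past 2-fold in the whole pregnancy group, stood at 2.11 and 11.3 RPKM in luminal-marked cells. In adult luminal cells they stood at 1.79 and 13.1 RPKM. Basal-marked pregnancy cells were higher than adult basal cells in 6 members (background 33.7%) and lower in 4 (background 17.9%, and 51.6% for 10 in either direction), the higher ones including Pdia4 at 193 and 78.5 CPM (1.30), Ssr3 at 1232 and 579 (1.09) and Herpud1 at 206 and 99.9 (1.04). Xbp1, Dnajb9 and Herpud1 were thus higher in the luminal-marked pregnancy cells than in adult luminal cells, whereas Hspa5, at 1312 and 1389 CPM, was nearly equal. Without the cells against their label the counts of both pairings were the same. Without all cells with markers of another type they were 7 and 4 against adult luminal and 4 and 5 against adult basal cells. Both pairings set 1 sample against another, so that pregnancy, animal and capture cannot be told apart in them.

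The milk genes, which are not members, gave a separate measure of how far each pregnancy cell had gone in making milk transcripts. Over the 96 pregnancy cells the summed level of the 40 members had a Spearman's rho of -0.08 with the milk share, and rho was -0.05 over the 45 cells up to title number 55 and 0.05 over the 51 above. These correlations are descriptions over cells that share a sample, amplification and depth. Single members differed widely. Ssr4 had a rho of 0.66 (0.60 and 0.72 in the 2 ranges), Sec11c 0.59 (0.39 and 0.75), Xbp1 0.53 (0.56 and 0.46) and Sec61b 0.51 (0.54 and 0.61). On the negative side stood Kdelr2, which returns escaped ER proteins from the Golgi, at -0.36 (-0.28 and -0.27), Canx at -0.29 (-0.09 and -0.40) and Hsp90b1 at -0.27 (-0.31 and -0.13).

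Of the 31 members found in at least 50% of the pregnancy cells, 4 reached a rho of 0.5 (12.9%), compared with 2.97% of 3431 genes found as widely. The medians were 0.09 and 0.05. Within the 31 luminal-marked cells Ssr4 (0.59) and Sec11c (0.55) kept values near those over all cells, Sec61b was at 0.40 and Xbp1 at 0.17, and Canx was at -0.52. Within the 43 basal-marked cells Ssr4 was at 0.33, Sec11c at 0.10 and Xbp1 at -0.03. In adult luminal cells, where milk reads were few, the same correlations were 0.06 for Ssr4, 0.17 for Sec11c and 0.04 for Xbp1.

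**Figure D4:**
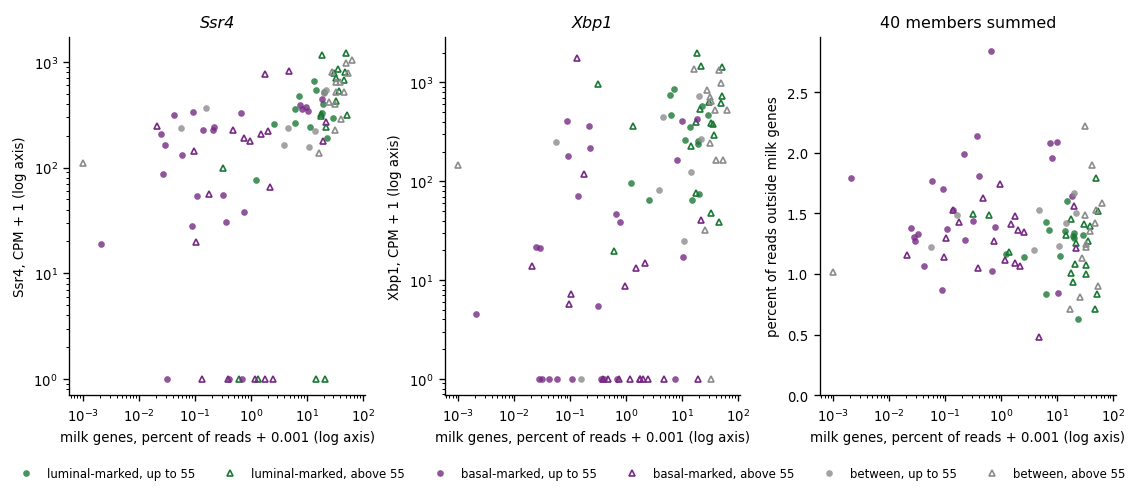
Level of Ssr4 and of Xbp1 (CPM + 1, log axis) and summed share of the 40 members against the milk genes' percent of reads (plus 0.001, log axis) in 96 pregnancy cells, coloured by class, with filled circles for title numbers up to 55 and open triangles above. Ssr4 was higher in cells with more milk reads (rho 0.66), and the summed share was not (rho -0.08).

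**Figure D5:**
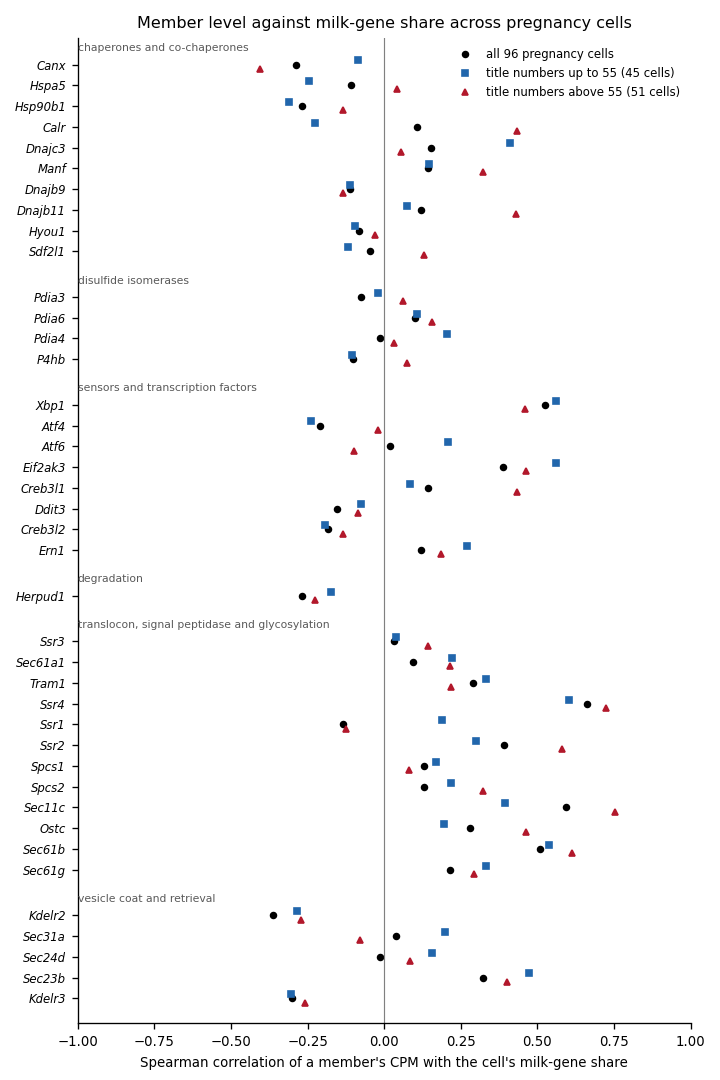
Spearman correlation of each member's CPM with the milk-gene share over all 96 pregnancy cells and within title numbers up to 55 (45 cells) and above 55 (51 cells), by role. Ssr4, Sec11c, Xbp1 and Sec61b lay at 0.51 to 0.66 over all cells, and Kdelr2 lay lowest at -0.36.

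The members were only weakly correlated with each other from cell to cell. Over the 465 pairs of those 31 members the median rho was 0.10 in pregnancy cells, beside 0.07 over pairs of all 3431 genes. It was 0.14 beside 0.08 in adult luminal cells (30 members) and 0.13 beside 0.08 in adult basal cells (24 members). The highest pairs in pregnancy were Sec61b with Ssr4 (0.52), Ssr4 with Sec11c (0.46) and Hsp90b1 with Kdelr2 (0.45), and the lowest was Canx with Xbp1 (-0.34). Hsp90b1 and Kdelr2 both had negative correlations with the milk share, at -0.27 and -0.36.

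The 8 members with either form of ERSE did not stand on one side. In luminal-marked over basal-marked cells 3 had ratios above 0 and 5 below, with a median log2 ratio of -0.19, while the 22 members of the table without one had a median of 0.06. Canx and Hsp90b1, whose elements are shown above, were at -1.06, and Calr and Dnajc3, with the same letters, were higher in luminal-marked cells, at 0.53 and 0.65. For pregnancy over adult luminal cells the medians were 0.07 and 0.33. The split of the 8 between the classes depended on the range of title numbers. Up to 55, 2 had ratios above 0 and 6 below (median -0.55), and above 55 there were 4 and 4 (median 0.14). Calr was nearly equal up to 55, at 178 RPKM in luminal-marked and 170 in basal-marked cells.

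The rest of the pathway was described through 94 further genes of ER folding, glycosylation, degradation, transport and stress signalling, 93 of which had a value. Between pregnancy and adult luminal cells 14 were at least 2-fold higher (background 28.3%) and 15 lower (background 22.7%), with a median of -0.06. Between pregnancy and adult basal cells there were 20 (background 34.2%) and 2 (background 15.9%), with a median of 0.30 beside 0.27 over all genes. Between the adult sorts there were 26 (background 36.2%) and 11 (background 23.7%), with a median of 0.43 beside 0.37. In luminal-marked over basal-marked cells there were 16 (background 25.2%) and 13 (background 28.4%), with a median of 0.07. In either direction these were 31.2%, 23.7%, 39.8% and 31.2% of the list, against 51%, 50.1%, 60% and 53.6% of all genes. Fkbp11, a prolyl isomerase of secretory cells, was at 170 CPM in pregnancy, 59.7 in adult luminal and 32.5 in adult basal cells. Magt1, an oxidoreductase subunit of the oligosaccharyltransferase, was at 152 CPM in pregnancy and 27.1 in adult basal cells (log2 ratio 2.49, and 3.10 without the highest cells). In the division of pregnancy cells both were on the luminal side, Fkbp11 at 303 against 51.1 CPM and Magt1 at 263 against 39.1.

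Stress genes of this wider list differed in both directions. Cebpb, a transcription factor with a role in both the stress response and the mammary gland, was at 150 CPM in pregnancy, 44.0 in adult luminal and 189 in adult basal cells. Nupr1, a stress-induced nuclear protein, was at 153 CPM in pregnancy, 583 in adult luminal and 29.8 in adult basal cells, and Tmed3, a cargo receptor of early transport, at 182, 560 and 61.6. Edem3, which trims glycans for degradation, was at 93.6 CPM in pregnancy and 37.9 in adult luminal cells, and the coat gene Sec24c at 35.9 and 106. Spcs3, a signal peptidase subunit, was at 1173 CPM in adult luminal and 222 in adult basal cells. Wfs1, an ER membrane protein, was highest in adult basal cells, at 69.3 CPM against 7.81 in pregnancy and 14.6 in adult luminal cells. Tusc3, the counterpart of Magt1, was at 56.9 CPM in adult basal, 32.2 in pregnancy and 23.9 in adult luminal cells, and Erp29, an isomerase-like chaperone, at 84.7 CPM in adult basal and 53.8 in pregnancy cells.

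Plasma cells are rich in ER, and cells bearing CD31, CD45 or Ter119 were gated out in the study's sort. Of 5 plasma cell markers Jchain, Mzb1 and Tnfrsf17 had no read in any group, and the list summed to 0, 13.0 and 3.74 CPM in adult luminal, adult basal and pregnancy cells. Immune markers summed to 4.27, 506 and 331 CPM, endothelial markers to 46.8, 0.614 and 174, fibroblast markers to 1769, 48.1 and 2083, pericyte markers to 29.7, 6.92 and 68.0 and cycling markers to 787, 159 and 687. In luminal-marked and basal-marked cells the fibroblast markers summed to 2247 and 2771 CPM and the cycling markers to 704 and 921.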

How the data were processed

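Gene-level counts of read pairs per cell were used as deposited. Per the study's methods and the submitters' processing notes, the authors aligned the reads to mm10 with Subread (version 1.4.6) and counted them in genes with featureCounts and its built-in RefSeq annotation. The libraries (Nextera XT) do not mark strand, so overlapping genes on opposite strands cannot be told apart. Of 27179 gene IDs, 1904 without current annotation (1.20% of reads), 15 mitochondrial (9.54%) and 120 ribosomal genes (1.50%) were removed. Cells were checked for identical columns, and none were found. No doublet caller was run, since the authors inspected each capture site by eye.

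Levels are sums of counts over a group's cells in CPM of all reads outside 8 milk genes, with exact Poisson, binomial or conditional 95% intervals. Each cell is a library and the labels name no animal, so each group is 1 sample and no test was made. A member was counted where its ratio was 2-fold or more, beside the same share of all genes at 1 CPM or more in at least 3 cells. Where 1 side had no reads, a limit of 3 reads over the group was used. Shares of cells and marker classes were taken after thinning each cell to 20000 reads. RPKM used the gene lengths in the files. Genes were named in full from 10 chosen members and from the 3 highest and 3 lowest members, and other pathway genes, of each comparison between groups among those at 50 CPM or more in the higher group. Beyond that rule, members past 2-fold or dependent on 1 cell were named after their values were seen. Members, lists and the division at title number 55 were chosen with earlier results of these data known. Promoters are from RefSeq (GRCm38.p6). The last residues of the members' proteins were not analysed here. Python 3.11.15, numpy 2.4.6, pandas 2.3.3, scipy 1.17.1, matplotlib 3.10.9 and, for TMM factors, edgeR 4.0.16 were used, and the ratio counts were tested on simulated data.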

Additional observations from a re-analysis of the deposited data

How the results depend on the processing

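Each result was recomputed under other scalings, filters and cell sets. The median log2 ratio over members depended most on the scaling. For pregnancy over adult luminal cells (0.16) it was -0.20 with milk genes kept in the totals, 0.29 with TMM or median-ratio factors, 0.0055 with every cell weighted equally and -0.12 with title numbers above 55. For pregnancy over adult basal cells (0.15) it was -0.22 with milk genes kept, 0.037 with mitochondrial and ribosomal genes kept, 0.011 with TMM and -0.015 with median-ratio factors, 0.40 without each gene's highest cell, -0.13 with title numbers above 55 and 0.018 without cells with markers of another type, an alternative chosen after seeing the data. For adult luminal over adult basal cells (0.18) it was -0.088 with TMM, -0.11 with median-ratio factors, 0.072 with equal weights and 0.25 without each gene's highest cell. For luminal-marked over basal-marked cells (0.13) it was -0.28 with milk genes kept, -0.085 up to title number 55, 0.33 above and 0.30 without cells with markers of another type. The medians of all genes moved with these scalings, by -0.35 with milk genes kept for pregnancy over adult luminal cells and by -0.30 with median-ratio factors between the adult sorts, so these values are relative to that shift.

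The counts of members past the limit, 11, 11, 12 and 17 in the same order, were 1, 2, 3 and 6 at 4-fold. Of all genes, 27.3%, 29.2%, 36.8% and 27.6% were past 4-fold in these comparisons. At 1.5-fold the counts for pregnancy over adult basal and the adult sorts were 17 and 24, beside 67.2% and 73.6% of all genes. With equal weights the count for pregnancy over adult basal was 6, beside 52.4% of all genes past 2-fold. Up to title number 55 the count for the classes was 11, beside 53.7%. Median shares of cells with a read, 62.2%, 40.6% and 59.9% in adult luminal, adult basal and pregnancy cells, were 82.9%, 55.3% and 77.1% without thinning and 22.0%, 15.3% and 22.4% when 5 reads were required. The correlation of the members' sum with the milk share (-0.080) was -0.014 without the members of highest level, -0.052 up to title number 55 and 0.045 above. Over 18 named members and 846 alternative values, none of those past 2-fold turned direction, and 38 of 413 were no longer past it. Many of these members were named for the highest or lowest ratios in the same data. Their steady direction was therefore partly set by that choice. Among the other members, Sdf2l1 turned direction against adult basal cells without its highest cells (0.84 in pregnancy and 0.19 in adult luminal). The cause of these differences was not tested. No paired analysis was possible because the numbers in the titles name cells and no test was made. With 1 sample a group, spread between animals is unknown, and in adult basal cells 7 members had over 50% of their reads in 1 cell.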
